A study of Mus musculus with 8 samples.

Results

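The 43 genes described here are mouse genes known to be imprinted that lie, with 1 exception, outside the Kcnq1 domain on chromosome 7. They were taken by name from a table of RNA levels in mouse embryonic stem cells (ES cells). All 43 names were found among the 17597 genes of the table, and they were spread over 11 chromosomes with 13 of them on chromosome 7. The exception is Ascl2, a transcription factor gene of the placental lineage. It lies 388.685 kb from H19 but 35.781 kb from Tspan32, at the edge of the Kcnq1 domain, so its position goes against the description of the set.

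The libraries came from a Cast x 129S ES cell line in which a TetOn promoter replaces the endogenous Xist promoter and in which METTL3, the enzyme that writes N6-methyladenosine on RNA, carries the FKBP12F36V tag. The labels place the TetOn promoter on the 129S allele, whereas the study's text places these lines on a background with the inducible Cast allele. The tag lets dTAG-13 trigger degradation of the protein. The 8 libraries fall into 4 from untreated cells and 4 from cells given dTAG-13 for 26 hours, each with 2 replicates of the clones C3 and H5, and doxycycline was given to neither group. Each clone stands for 1 line, and the cells grew in serum with LIF on mitomycin-inactivated mouse fibroblasts. The labels name the molecule as total RNA, whereas the extraction text filed with them describes chromatin RNA. The study's methods describe total RNA.

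The question put to these libraries was which RNAs change when METTL3 is removed for a short time. The values used here cannot answer it for the imprinted genes, because the only level the table gives is the authors' mean count of each gene, a single value pooled over untreated and dTAG-13 libraries after division by size factors. No value per library, and hence no spread, sample size or test, stands behind any level below. Depth per library and the level of Mettl3 in each library were not analysed here for the same reason. Differences between genes are therefore descriptions of 1 pooled state of these cells.

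An imprinted gene is transcribed mainly from the copy inherited from 1 parent. The choice follows DNA methylation laid down in the egg or the sperm at imprinting control regions, which the embryo keeps through the wave of demethylation after fertilisation. Imprinted genes sit in clusters where protein-coding genes that act in growth, placenta and brain lie beside long noncoding RNAs, and the noncoding RNA is often made from the opposite parental copy. Parental classes used below are textbook knowledge. Alleles were not separated in the table, so no value here says which copy was transcribed. By those classes 24 genes are paternally expressed and 15 maternally expressed. The remaining 4 (Gnas, Grb10, Ddc and Inpp5f) were put in neither class, because which copy is expressed depends on isoform or tissue. In 8 of the 15 maternal genes (Ube3a, Copg2, Commd1, Blcap, Trappc9, H13, Ppp1r9a and Ascl2) the bias was marked as known from some tissues only. This mark is not exhaustive, and unmarked members of either class may depend on tissue too. Of all 43, 6 are noncoding.

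Marker genes showed the ES cell label to hold. All 10 pluripotency genes examined had mean counts of 1019 or more, with Pou5f1 at 11934, Nanog at 5933 and Sox2 at 3444. Markers listed for fibroblasts, the feeder cell type, summed to 8659 over 12 genes, and which cells their RNA came from was not tested. Of that sum the matrix genes Fn1 held 4941 and Sparc 3052. Tagln at 345, Thy1 at 116 and Acta2 at 103 also passed 100, so that 5 of the 12 did. Twist1 stood at 49.6, Col1a1 at 19.8, Col1a2 at 13.8, Col3a1 at 8.38, Dcn at 7.50, Lum at 1.45 and Postn at 0.768, and none was at 0. Trophoblast markers ranged from Elf5 at 2.07 and Cdx2 at 9.63 to Tfap2c at 922. The neuron markers ran from Rbfox3 at 7.52 to Tubb3 at 2503. The part of feeder RNA in the levels of imprinted genes was not tested.

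RNAs of genes that regulate imprints were all found in the pooled mean. Their proteins, and whether imprints were kept in these cells, were not measured. All 11 regulators examined had mean counts of at least 1038, and their median level was 1104 counts per kb of exon, against 39.9 for all genes. Trim28, the corepressor that zinc finger proteins bring to methylated control regions, stood at 18853. Zfp57 (4612) and Zfp445 (2644) encode zinc finger proteins that bind those regions. Dnmt1 (6392) encodes the maintenance methyltransferase and Uhrf1 (5850) its partner at replicated DNA. Dnmt3a (2328), Dnmt3b (4692) and Dnmt3l (4294) serve new methylation. Setdb1 (2665) encodes a histone H3 methyltransferase, Ctcf (5365) the insulator protein that acts at the H19-Igf2 region, and Dppa3 (1038) a protein that shields the maternal genome after fertilisation.

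**Figure D1:**
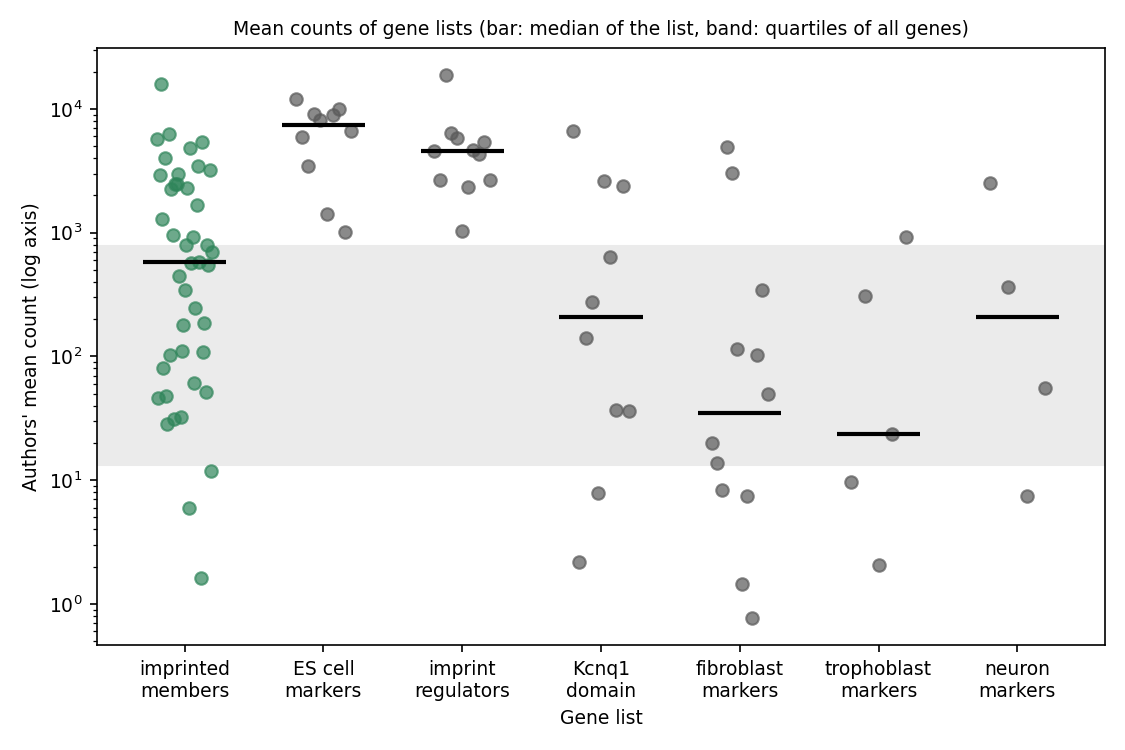
Authors' mean count (log axis) of the 43 imprinted genes and of 6 gene lists, 1 point per gene, with the median of each list as a bar and the quartiles of all genes as a grey band. Imprinted genes span from 1.64 to 15997, whereas every ES cell marker and every imprint regulator lies above 1000.

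Imprinted genes held 0.517% of all reads assigned to genes while making up 0.244% of the genes. Their summed mean count was 75412. Of the 43, 32 (74.4%) reached a mean count of 100, as did 56.3% of all genes, and 16 (37.2%) reached 1000, as did 20.6% of all genes. At the other end, 11 stayed under 100 and together held 0.527% of the summed count. The median member had a mean count of 576, above the 170 of the median gene. Among the genes with an annotated exon length, levels per kb gave a median of 102 for the members and 39.9 for all genes, and 26 of 42 members lay above the median gene. A count grows with gene length, so counts below say how many reads a gene held, and ratios between genes are given per kb. The shares of genes that reached 100 or 1000 are not adjusted for length.

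A few genes carried most of the reads. Rian, a long noncoding RNA that hosts box C/D small nucleolar RNAs, had a mean count of 15997, which was 21.2% of the members' sum. Next by number of reads were Peg10, a gene derived from a retrotransposon and needed for the placenta (6297), the noncoding RNA H19 (5771), the amino acid transporter gene Slc38a4 (5395) and Impact, whose product restrains the kinase GCN2 (4820). Together these 5 held 50.8% of the sum.

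Per kb of exon the order changed. H19 was highest at 2346 counts per kb, followed by Slc38a4 at 1266 and Snrpn, which encodes the splicing protein SmN, at 1150. Behind them came Peg10 (944), Impact (940), the retrogene Mcts2 (879) and Rian (877), which differ by little. Lowest was Rasgrf1, a guanine nucleotide exchange factor gene for Ras, with a mean count of 1.64 and 0.148 counts per kb, at the 1.82 percentile of all genes. Without values per library, neighbours in this order cannot be separated. The place of Rian also depends on the choice of length. With the longest transcript as length it stood at 1978 counts per kb, behind H19 at 2524 and above Slc38a4 at 1372.

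**Figure D2:**
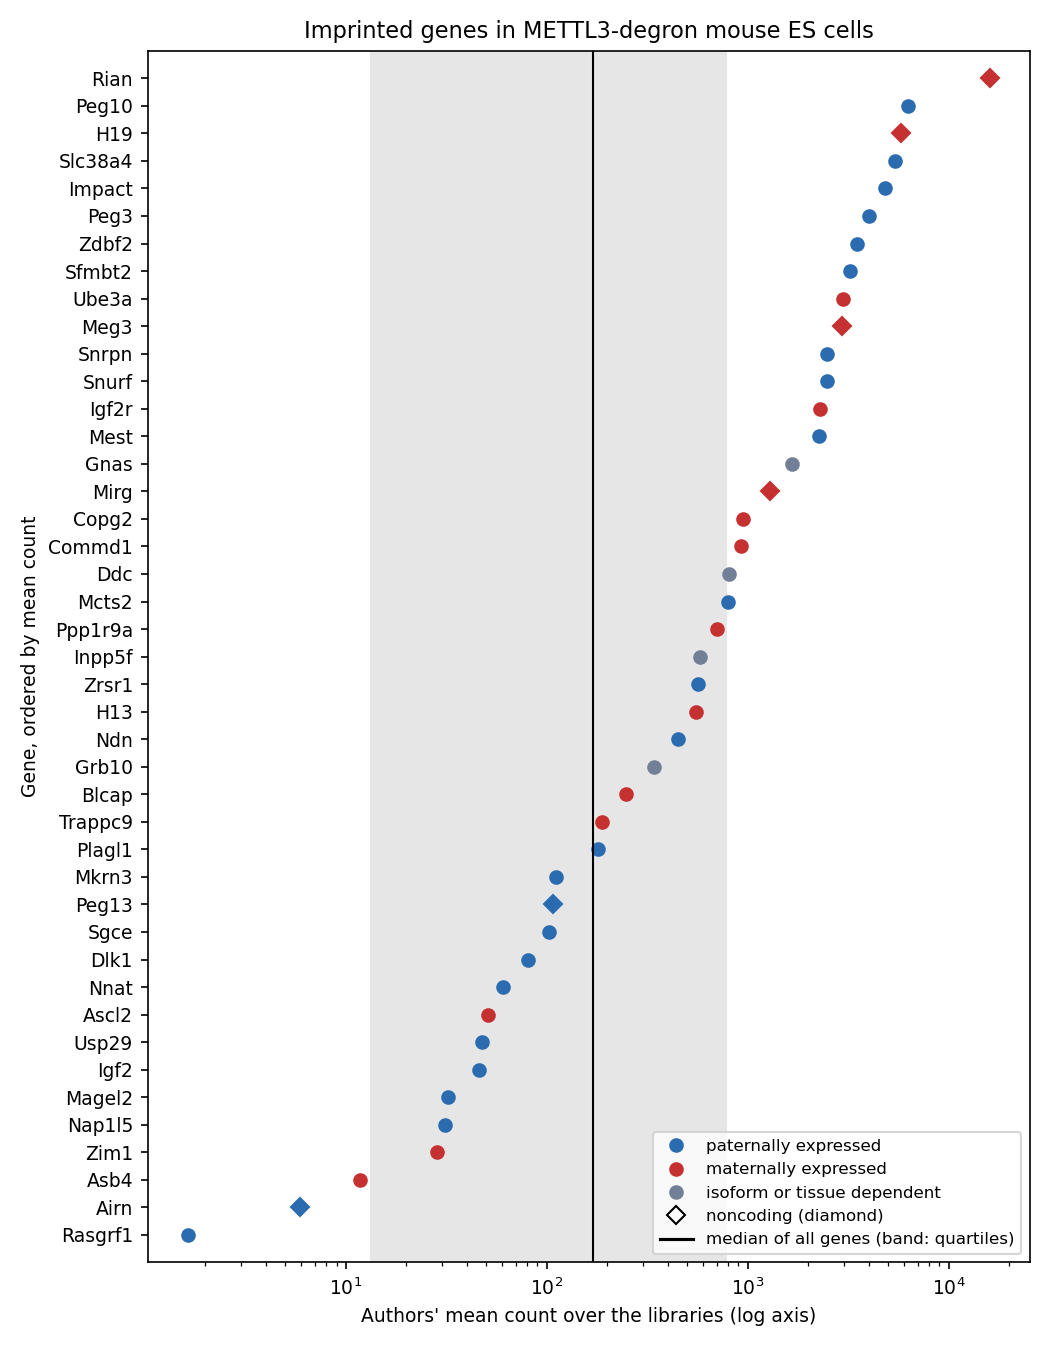
Authors' mean count over the libraries (log axis) for each of the 43 imprinted genes, ordered by count, with no adjustment for gene length; colour gives the known parental class, diamonds mark noncoding RNAs, and the line and grey band give the median and quartiles of all genes. Rian stands alone at the top with 15997, and Airn at 5.94 and Rasgrf1 at 1.64 are the only members under 10.

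Taken as classes, maternally expressed genes had the higher median, 144 counts per kb for 15 genes against 43.7 for 23 paternally expressed genes, Snurf being left out for want of a usable length. The ranges overlapped over nearly their whole width, from 3.0 (Asb4) to 2346 (H19) in the maternal class and from 0.148 (Rasgrf1) to 1266 (Slc38a4) in the paternal class. Above the median gene lay 11 of 15 maternal and 12 of 23 paternal genes. The classes took similar shares of the summed count, 46.3% for the maternal and 49.2% for the paternal genes. Genes of neither class took 4.50%.

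The paternal class was split. Its median fell on Mkrn3, a makorin ring finger gene, at 43.7, and no paternal gene lay between this level and Ndn at 122. Above the gap were 11 genes, 9 of them over the upper quartile of all genes. Below Mkrn3 lay Rasgrf1 (0.148), Airn (1.65), Usp29 (2.63), Magel2 (6.95), Igf2 (8.0) and Sgce (9.63). Dlk1 (14.2), Nap1l5 (16.8), Peg13 (22.9), Plagl1 (23.1) and Nnat (33.3) lay there too. A median over such a class moves far when few genes change sides.

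The order of the classes also turned when noncoding RNAs were set apart. Among coding genes the paternal median was 122 counts per kb over 21 genes and the maternal median 61.9 over 11 genes. This paternal median fell on Ndn, just above the gap, so it too would move far if few genes changed sides. With the longest transcript as length the medians were close, on Ndn at 122 and on H13 at 106. Of the 11 maternal coding genes, the 8 marked as biased in some tissues only had a median of 71.7. The 3 not so marked had one of 3.53, on Zim1, with Asb4 at 3.0 and Igf2r at 246. Leaving the 8 out brought the median of the whole maternal class to 177, against 43.7 for the paternal class as a whole. Maternal noncoding RNAs (H19, Meg3, Rian and Mirg) had a median of 527 and ranged from 163 to 2346, so all 4 lay above the median gene. Both paternal noncoding RNAs lay below it, Airn at 1.65 and Peg13 at 22.9. Noncoding members as a whole had a median of 170 and coding members 75.3, and noncoding RNAs held 34.6% of the summed count with 6 of 43 genes.

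Nearly all of that share came from 2 loci. Rian, Meg3 and Mirg come from 1 cluster on chromosome 12 and H19 from chromosome 7, so the 4 maternal noncoding RNAs are not 4 independent cases. Leaving out the 9 members that share at least 10% of their exon bases with another gene brought the maternal median to 71.7 counts per kb, still above the unchanged paternal 43.7.

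**Figure D3:**
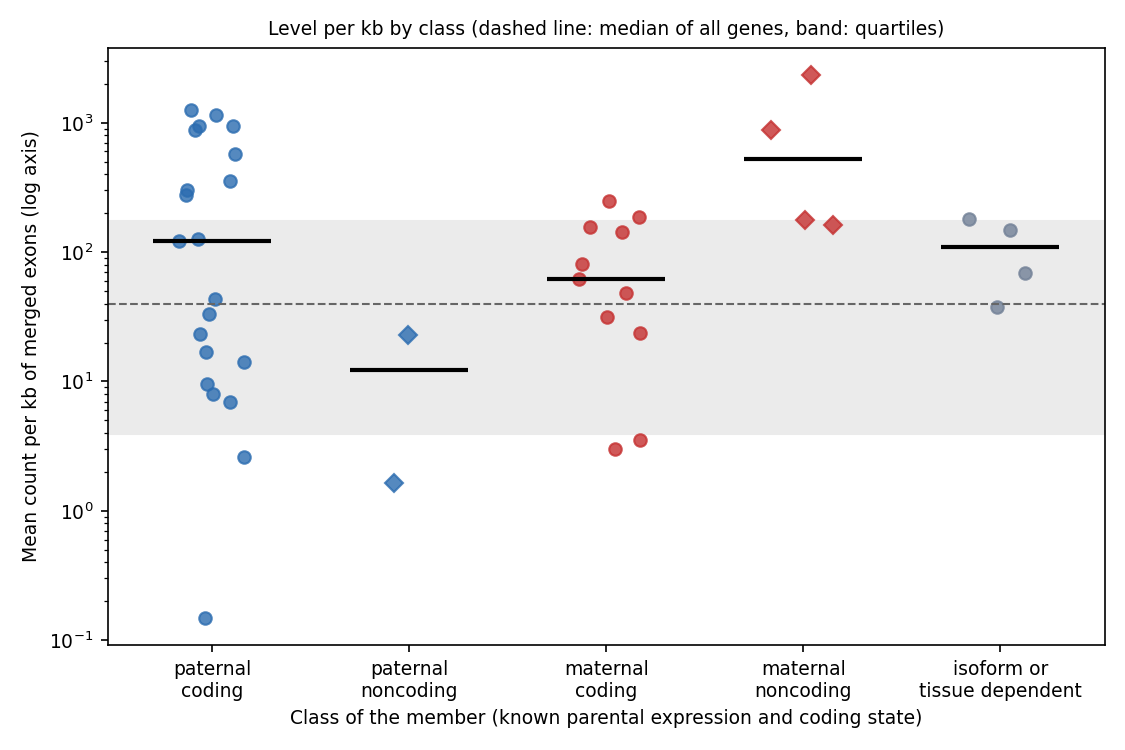
Mean count per kb of merged exons (log axis) by class, 1 point per gene, with class medians as bars, the median of all genes as a dashed line and their quartiles as a grey band. The 4 maternal noncoding RNAs lie between 163 and 2346, while paternal coding genes fall on either side of an empty stretch between 43.7 and 122.

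At the H19-Igf2 locus the noncoding RNA was abundant and the growth factor gene was not. H19 (chr7:142575529-142578143, minus strand) had a mean count of 5771 and Igf2, which encodes insulin-like growth factor 2, one of 45.8. Per kb H19 was 293 times as high as Igf2, with 72.622 kb between their spans. The value of Igf2 is uncertain, since 62.8% of its exon bases lie within those of the overlapping gene Gm49394 on the same strand. Igf2r, the receptor that clears this growth factor, stood at 246 per kb. Grb10, an adaptor that dampens insulin receptor signalling, stood at 37.7, and its neighbour Ddc, the aromatic amino acid decarboxylase gene, at 180.

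In the Dlk1-Meg3 cluster on chromosome 12 all 3 maternal noncoding RNAs exceeded the paternal coding gene Dlk1, which encodes a membrane protein of the Notch ligand type. Dlk1 had a mean count of 80.5 and 14.2 counts per kb. Meg3, with a mean count of 2949, was 11.5 times as high per kb, Mirg (1292) 12.5 times and Rian 61.7 times. Among the RNAs themselves Rian exceeded Meg3 5.38-fold and Mirg 4.95-fold per kb, although Meg3, Rian and Mirg lie one after another on the plus strand and are often regarded as parts of 1 long transcription unit. Their annotated exon lengths vary by isoform, and with the longest transcript as length the ratio of Rian to Meg3 became 9.76, that of Rian to Dlk1 114 and that of Mirg to Dlk1 19.5.

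Several of these RNAs are hosts of microRNAs. RefSeq (GRCm38.p6) places 43 mature microRNAs with 42 different seeds inside 7 of the imprinted genes, 26 of them in Mirg, 6 in Rian and 3 in Meg3, with 2 each in H19, Igf2, Mest and Usp29. The pair from H19 is printed because its host had the highest level per kb, and miR-453 with miR-496a-5p because they hold the only seed that recurred. Capitals mark the seed, bases 2 to 8. MicroRNAs themselves were not measured, and a host level says nothing of the mature product.
miR-675-5p: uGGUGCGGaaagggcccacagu
miR-675-3p: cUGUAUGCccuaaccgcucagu
miR-453: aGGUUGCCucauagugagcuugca
miR-496a-5p: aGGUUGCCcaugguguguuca

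Genes of the same parental class that share a start region could differ widely. Peg10 and Sgce, the latter encoding epsilon-sarcoglycan, are both paternally expressed and lie head to head with 98 bases between their spans. Their mean counts were 6297 and 102, a 98.0-fold difference per kb that became 40.8-fold with the longest transcript as length. Peg3, a zinc finger gene, and Usp29, a ubiquitin peptidase gene, are likewise paternal and 146 bases apart, at 4008 and 47.5, a 114-fold difference per kb that became 73.1-fold with the longest transcript. The maternally expressed Zim1, another zinc finger gene in the Peg3 domain, stood at 28.6. Farther along the Peg10 domain Ppp1r9a, which encodes neurabin, reached 702 and Asb4, a SOCS box gene, 11.8. These pairs were chosen with the levels known.

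Airn is an antisense noncoding RNA at Igf2r, and its transcription from the paternal copy can silence Igf2r there. Whether it did so in these cells was not measured. Airn had a mean count of 5.94 against 2294 for Igf2r. Per kb this was a ratio of 0.0067, or 0.0167 with the longest transcript as length. The annotated exons of Airn sum to 3597 bases in a span of chr17:12741311-12860136, and reads from the rest of the span lie outside these exons.

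In the Snrpn domain levels fell off with no simple order along the chromosome. Snrpn had 2483 and Ube3a, the E3 ubiquitin ligase gene that is maternally expressed in neurons, 2975. Per kb Snrpn was 7.97 times as high as Ube3a, a ratio of 3.96 with the longest transcript as length. It was 9.43 times as high as Ndn, 26.3 times as high as Mkrn3 and 166 times as high as Magel2, where Ndn and Magel2 encode MAGE family proteins. Snurf, which is translated from the same transcript as Snrpn, had a mean count of 2478. It is given no level per kb, because GENCODE annotates only 216 bases of it, all within exons of Snrpn, and its count cannot be taken as a second measurement. How reads were shared between Snurf and Snrpn in counting is not known here. The level of Snrpn and its ratios are therefore uncertain.

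Paternal genes that lie within the span of a host gene include Mcts2 in H13, Zrsr1 in Commd1, Nnat in Blcap, Peg13 in Trappc9 and Nap1l5 in Herc3. Mcts2, a retrogene copy of a translation factor, was 14.2 times as high per kb as its host H13, a signal peptide peptidase gene, with mean counts of 801 and 550. With the longest transcript as length the ratio became 8.31. Zrsr1 (566), a retrogene copy of a splicing factor, lay per kb at 0.811 of Commd1 (923), a gene of copper handling. The noncoding RNA Peg13 (108) lay at 0.965 of the vesicle transport gene Trappc9 (188) per kb. Nnat (60.9), the neuronatin gene, lay at 0.409 of Blcap (248), and Nap1l5 (31.0), a nucleosome assembly family gene, at 0.55 of Herc3 (279). The longest transcript as length lowered these ratios to 0.616 for Zrsr1, 0.551 for Peg13, 0.358 for Nnat and 0.285 for Nap1l5.

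Both retrogenes could be set beside the X-linked genes they came from. Mcts2 stood at 879 counts per kb and Mcts1 at 577, a ratio of 1.52 that became 0.758 with the longest transcript as length. Zrsr1 stood at 0.461 of Zrsr2 per kb, or 0.248 with that length. Neither retrogene shared any window of 81 bases, the read length, with its parent gene in the annotated transcripts.

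**Figure D4:**
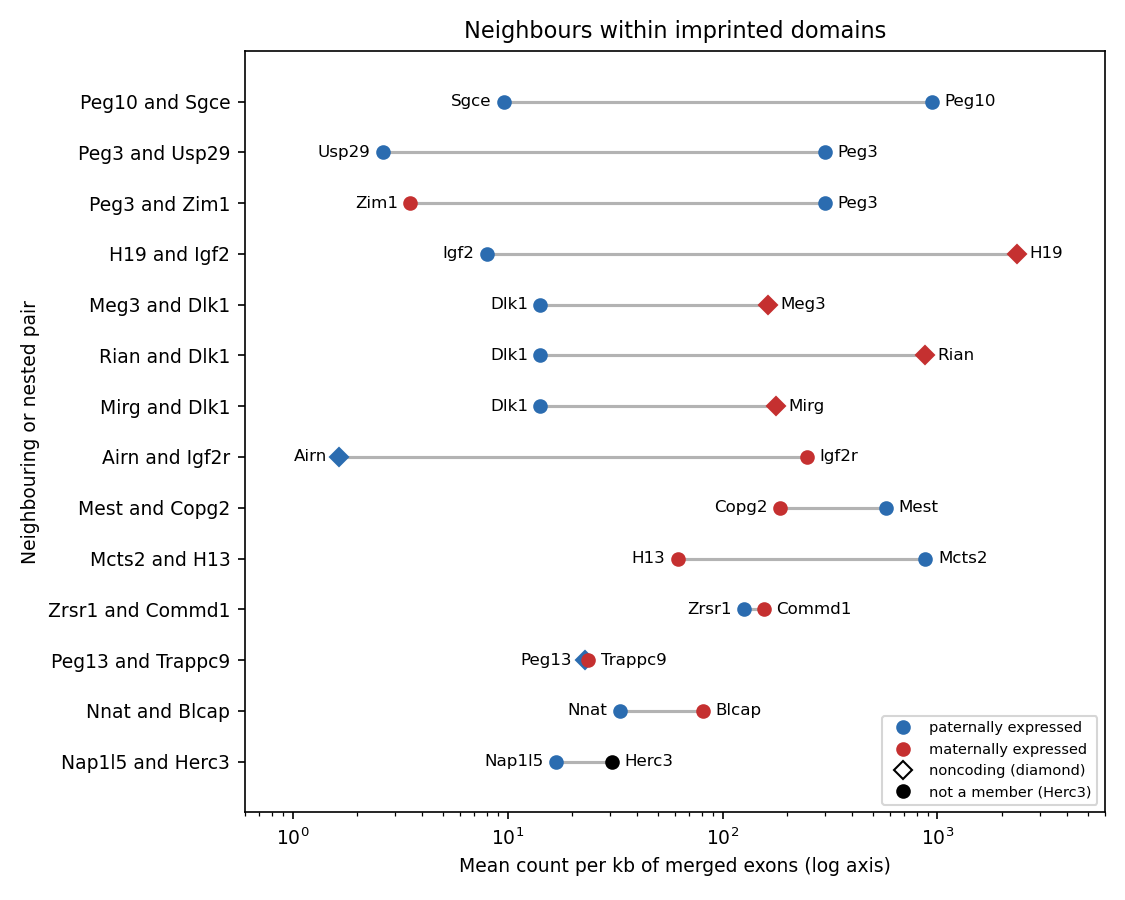
Mean count per kb of merged exons (log axis) for 14 pairs of neighbouring or nested genes, joined by a grey line; colour gives the known parental class, diamonds noncoding RNAs, and black Herc3, which is outside the set. H19 and Igf2 are the farthest apart, at 2346 and 8.0, whereas Peg13 and Trappc9 lie at 22.9 and 23.7, a closeness that depends on the choice of exon length.

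The remaining members covered much of the range. Zdbf2 (3490) and Sfmbt2 (3232), genes of zinc finger and polycomb type, and Mest, a hydrolase gene (2261), were all paternal and above the upper quartile of all genes per kb. Mest overlaps its maternal neighbour Copg2, a coat protein gene at 952, by 912 bases of exon on the opposite strand. Gnas, which encodes the stimulatory G protein alpha subunit along with other products, stood at 1669, and Inpp5f, a phosphoinositide phosphatase gene, at 576. Lower were the zinc finger gene Plagl1 (181) and Ascl2 (51.3), at 23.1 and 31.6 counts per kb.

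The Kcnq1 domain also held unequal neighbours. Per kb of exon Cd81, a tetraspanin gene, stood at 911 and Phlda2, a brake on placental growth, at 247. The potassium channel gene Kcnq1 stood at 0.529. Kcnq1ot1, the paternal noncoding RNA of the domain, had 71.7 counts per kb and the cell cycle inhibitor gene Cdkn1c 68.9. Their mean counts, without division by length, were far apart at 6671 and 141. The 10 genes of the domain had a median of 70.3 counts per kb, and the members here 102. This difference was not tested.

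Promoter windows of 300 bases, from 250 before to 50 after each start, were read from RefSeq (GRCm38.p6) for 37 of the members and searched on both strands for TGCCGC, the hexamer that ZFP57 binds when it is methylated. The letters occurred in a window of 14 of 37 members (37.8%) and of 2598 of 12913 listed genes with a window (20.1%). Counted by window, they occurred in 15 of 58 member windows (25.9%) and in 3813 of all 32851 (11.6%). Windows of 1 gene can overlap, and genes with several windows have more chances of a match. By class the hexamer was found in 9 of 20 paternal, 4 of 13 maternal and 1 of 4 other members. Snrpn and Snurf hold their match in the same window, so the same stretch is counted for both in these numbers. A match describes letters only and is no evidence of binding or methylation in these cells.

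Windows of 4 paternally expressed genes are printed because they start inside a host gene (Mcts2, Nnat and Nap1l5) or serve a shared start (Snurf, identical to 1 of the 4 windows of Snrpn). Capitals mark TGCCGC or its reverse complement GCGGCA, which is the same hexamer on the other strand. They lie at chr2:152686898-152687197 on the plus strand (Mcts2), chr2:157559828-157560127 on the plus strand (Nnat), chr6:58907077-58907376 on the minus strand (Nap1l5) and chr7:60005150-60005449 on the minus strand (Snurf). Nap1l5 holds 2 matches, the others 1 each, and a match can lie on either side of the start. These windows were chosen among those that hold the hexamer. Zrsr1, also nested, holds 0.
Mcts2: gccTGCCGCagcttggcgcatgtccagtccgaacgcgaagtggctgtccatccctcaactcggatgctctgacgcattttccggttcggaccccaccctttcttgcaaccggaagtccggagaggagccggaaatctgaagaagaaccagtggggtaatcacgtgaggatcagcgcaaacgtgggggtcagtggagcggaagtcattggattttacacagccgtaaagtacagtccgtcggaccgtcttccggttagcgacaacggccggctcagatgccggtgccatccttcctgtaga
Nnat: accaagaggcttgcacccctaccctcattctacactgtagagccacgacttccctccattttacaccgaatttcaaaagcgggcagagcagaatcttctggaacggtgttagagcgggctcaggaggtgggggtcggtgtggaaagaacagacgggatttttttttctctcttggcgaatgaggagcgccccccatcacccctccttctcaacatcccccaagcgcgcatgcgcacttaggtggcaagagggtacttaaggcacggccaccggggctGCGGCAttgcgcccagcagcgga
Nap1l5: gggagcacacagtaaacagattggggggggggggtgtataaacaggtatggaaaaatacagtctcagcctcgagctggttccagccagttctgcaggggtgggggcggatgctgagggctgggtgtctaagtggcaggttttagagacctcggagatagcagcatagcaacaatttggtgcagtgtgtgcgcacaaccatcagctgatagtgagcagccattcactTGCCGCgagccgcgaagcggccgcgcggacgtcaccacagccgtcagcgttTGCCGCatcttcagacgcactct
Snurf: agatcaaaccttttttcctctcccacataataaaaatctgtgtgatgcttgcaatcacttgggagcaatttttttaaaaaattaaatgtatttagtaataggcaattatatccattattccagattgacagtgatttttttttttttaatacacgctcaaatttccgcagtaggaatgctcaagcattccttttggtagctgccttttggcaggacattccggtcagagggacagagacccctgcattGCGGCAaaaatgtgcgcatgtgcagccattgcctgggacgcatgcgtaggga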

How the data were processed

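RNA from 8 ES cell libraries was sequenced with a stranded total RNA kit. Per the study's methods, the authors removed ribosomal reads, aligned to mm10 with strain-variable bases masked, kept unique alignments, removed duplicates with Picard and counted genes and transposable element subfamilies with TEtranscripts, which runs DESeq2. The deposited table holds 18694 features, 17597 of them genes. The values used here are the deposited signal of each gene, the authors' mean count after division by size factors, pooled over libraries. The other 5 columns hold the authors' comparison of dTAG-13 with untreated cells (log2 fold change, standard error, statistic, p-value and adjusted p-value) and were not used. Hence no treatment difference and no test is given. Genes summed to 14573411 counts and transposable elements to 1719306. Whether counting used strand is not clear from the sources, so overlapping and antisense genes (Airn and Igf2r, Mest and Copg2, Zrsr1 and Commd1, Usp29 and Zim3, Ube3a and Snhg14, Gnas and Nespas) are uncertain.

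Levels per kb were computed here as the mean count per 1000 bases of merged exons in GENCODE vM21 (GRCm38, the build of mm10); the authors' annotation may give other lengths. Of 17597 symbols 16660 matched directly, 716 through older names, and 221 did not match. Classes were compared by medians, ranges and counts beside all genes. Every member is named with its mean count or its level per kb, and the genes named beside them come from the listed pairs, regulators, Kcnq1 domain and markers. The members and lists were chosen with earlier results of these data known. Alternatives changed the minimum count, the reference genes, the length and the members left out. The arithmetic of levels per kb and of a ratio of medians was checked on simulated levels. The steps that gave the values here were not run on simulated data. Python 3.11.15, pandas 2.3.3, numpy 2.4.6 and matplotlib 3.10.9 were used.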

Additional observations from a re-analysis of the deposited data

How the results depend on the processing

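Of the 17 alternative values computed for member counts, class medians and the summed count, 14 stayed close to the reported ones and 3 moved further. Close is meant loosely, since a maternal median of 203 with the longest transcript, against 144, was counted so. Some of the 14 could not have moved. All 43 names were found without older symbols, and no noncoding member was among those left out for exon overlap. Pair ratios are not in this tally. Several moved more with the longest transcript as length, such as Peg10 to Sgce from 98.0 to 40.8. Leaving out members whose exons overlap another gene by at least 10% brought the maternal median to 71.7 counts per kb. With the longest transcript as length the noncoding median became 270 and the coding median 120, in the same order as before. A minimum mean count of 50 or 200 in place of 100 left 35 or 27 members. When the reference was limited to genes averaging 10 counts or more, 22 members lay above the median gene per kb. The summed count was 59415 without Rian and 72934 without Snurf, the latter an alternative chosen after seeing the data. No paired analysis was possible because the table gives 1 pooled mean per gene and no value per library, and no library could be left out for the same reason. Depth and replicate spread behind each level are unknown here, so low members such as Rasgrf1 and Airn have no stated precision.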
